A study of Homo sapiens with 6 samples.

Results

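The CD9 and VWF locus comprised the ATAC-seq peaks on chromosome 12 of hg38 from 5848877 to 6442114, that is from 100 kb before VWF to 100 kb after TNFRSF1A, with CD9 and PLEKHG6 between them. It held 124 of the 171517 peaks of the count table and 593 kb of sequence. The locus was selected on these count data, because many of its peaks had fewer reads with dm-αKG than in control, so the differences between treatments given for its peaks are a description and carry no test. All 6 libraries came from nES cells, human embryonic stem cells of the established line H9 held in a naive state in tt2iLGö medium, which contains the inhibitors PD0325901, CHIR99021 and Gö 6983 together with hLIF. The cells had been grown on mouse feeder cells under low oxygen, were depleted of feeders and were plated on laminin. In the dm-αKG group the medium then contained 4 mM dm-αKG, a cell-permeable form of α-ketoglutarate, for 24 h (n = 3 libraries). The control group (n = 3 libraries) is labelled DMSO, and its protocol gives 0 mM dm-αKG over the same time. The libraries of a treatment were biological replicates from a single experiment. The groups therefore model 1 cell line in 1 medium.

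CD9 encodes a tetraspanin, a membrane protein that organises integrins and other surface proteins and that is abundant on human pluripotent stem cells. VWF encodes von Willebrand factor, a blood clotting glycoprotein made mainly by endothelial cells and megakaryocytes. PLEKHG6 encodes a guanine nucleotide exchange factor, and TNFRSF1A encodes TNF receptor 1, which passes the tumour necrosis factor signal to NF-κB and to caspases. Genes are commonly regulated by GREs that lie far from their start sites, and in ATAC-seq a transposase cuts such accessible elements more often than closed chromatin, so reads gather there.

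Sequences of peaks on which the description turns are given first, all 5′ to 3′ from hg38. The first is a called peak between VWF and CD9 whose sequence recurs in peaks elsewhere. It is followed by the single called peak within CD9 and by the peak at the CD9 start site. Capitals mark a match to the TEAD motif (GGAATG), and the latter 2 peaks held no match to any of the 9 motifs searched.
chr12:6160292-6160492, plus strand: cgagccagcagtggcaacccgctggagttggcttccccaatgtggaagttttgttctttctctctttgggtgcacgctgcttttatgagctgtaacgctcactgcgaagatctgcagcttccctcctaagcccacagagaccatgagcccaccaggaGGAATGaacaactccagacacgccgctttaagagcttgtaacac
chr12:6215176-6215379, plus strand: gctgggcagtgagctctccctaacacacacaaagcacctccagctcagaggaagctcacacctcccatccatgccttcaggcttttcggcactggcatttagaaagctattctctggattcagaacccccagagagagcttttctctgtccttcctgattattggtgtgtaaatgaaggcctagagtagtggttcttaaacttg
chr12:6199594-6199803, plus strand: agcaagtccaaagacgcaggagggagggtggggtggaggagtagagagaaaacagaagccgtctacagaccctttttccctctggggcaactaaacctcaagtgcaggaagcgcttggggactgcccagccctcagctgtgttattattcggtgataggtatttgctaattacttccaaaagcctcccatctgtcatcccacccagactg

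The count table held between 13025674 and 26828622 counts in peaks per library, and TMM factors lay between 0.9914 and 1.0142. Values below are normalized counts, that is counts in a peak scaled by library size and TMM factor to the mean library. Promoter peaks of 7 of 8 naive marker genes were found, at the 84.9th to 99.2nd percentile of all peaks in control, and DPPA3 had none. Those of 5 of 5 primed genes lay at the 70th to 96.7th percentile, those of 4 of 4 trophoblast genes at the 12.3rd to 89.8th, and those of 4 of 4 endothelial genes at the 41.2nd to 99.4th, so promoter accessibility did not separate these marker lists. At an adjusted p below 0.01 (edgeR), 1 naive promoter peak rose and 1 fell, 1 primed and 1 endothelial peak fell, and 1 trophoblast peak rose, where 9.88% of all peaks had such a p. Summed over a list, normalized counts of the naive peaks ranged from 2698 to 2835 in control and from 2762 to 2913 with dm-αKG, which overlap. The sums of the primed list (1018 to 1104 in control, 872 to 943 with dm-αKG) and of the endothelial list (1203 to 1300 and 1043 to 1122) were lower with dm-αKG without overlap, and those of the trophoblast list (549.9 to 596 and 602 to 649.6) were higher without overlap. The members did not all share these shifts. Among trophoblast genes, only TP63 was higher without overlap, with means of 24.5 in control and 52.8 with dm-αKG. GATA3 had a log2 fold change of -0.06. Every primed gene overlapped between treatments, and ZIC2 and THY1 had log2 fold changes of 0.21 and 0.01. All endothelial genes had negative log2 fold changes, but PECAM1 and CDH5 overlapped between treatments, and KDR alone passed the adjusted p. The primed, endothelial and trophoblast sums are therefore not read as shifts of whole lists. The part of other cell types in the values of the locus was not tested.

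In the locus, 12 peaks were called less accessible with dm-αKG (edgeR, adjusted p below 0.01 and log2 fold change below -1), where 1.96% of all peaks were, and 0 were called more accessible, where 0.782% of all peaks were. At looser thresholds, 34 locus peaks were lower and 11 higher at an adjusted p below 0.05 with no fold threshold, where 10.5% and 7.43% of all peaks were. At an adjusted p below 0.01 and a 1.5-fold threshold, 25 were lower and 4 higher, where 4.94% and 2.32% of all peaks were. Since these calls led to the selection of the locus, nothing is read from these counts. Of the 12, 11 lay between VWF and CD9 and 1 lay in an intron of CD9. All 3 dm-αKG values lay below all 3 control values in 47 of the 124 peaks, against 16.9% of all peaks, and above them in 17, against 15.5% of all peaks. The median log2 fold change of the 124 peaks was -0.12, against 0.011 for all peaks. No peak of the locus passed the call for the opposite direction, and the highest log2 fold change, 0.86 ± 0.16 (SE), was that of chr12:6430670-6430883 at the far end of the locus, with 75.1, 87.1 and 76.5 normalized counts in the control libraries and 123, 157 and 165 in the dm-αKG libraries. Without dm-αKG replicate 1, that peak was called more accessible, at a log2 fold change of 1.01.

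**Figure D1:**
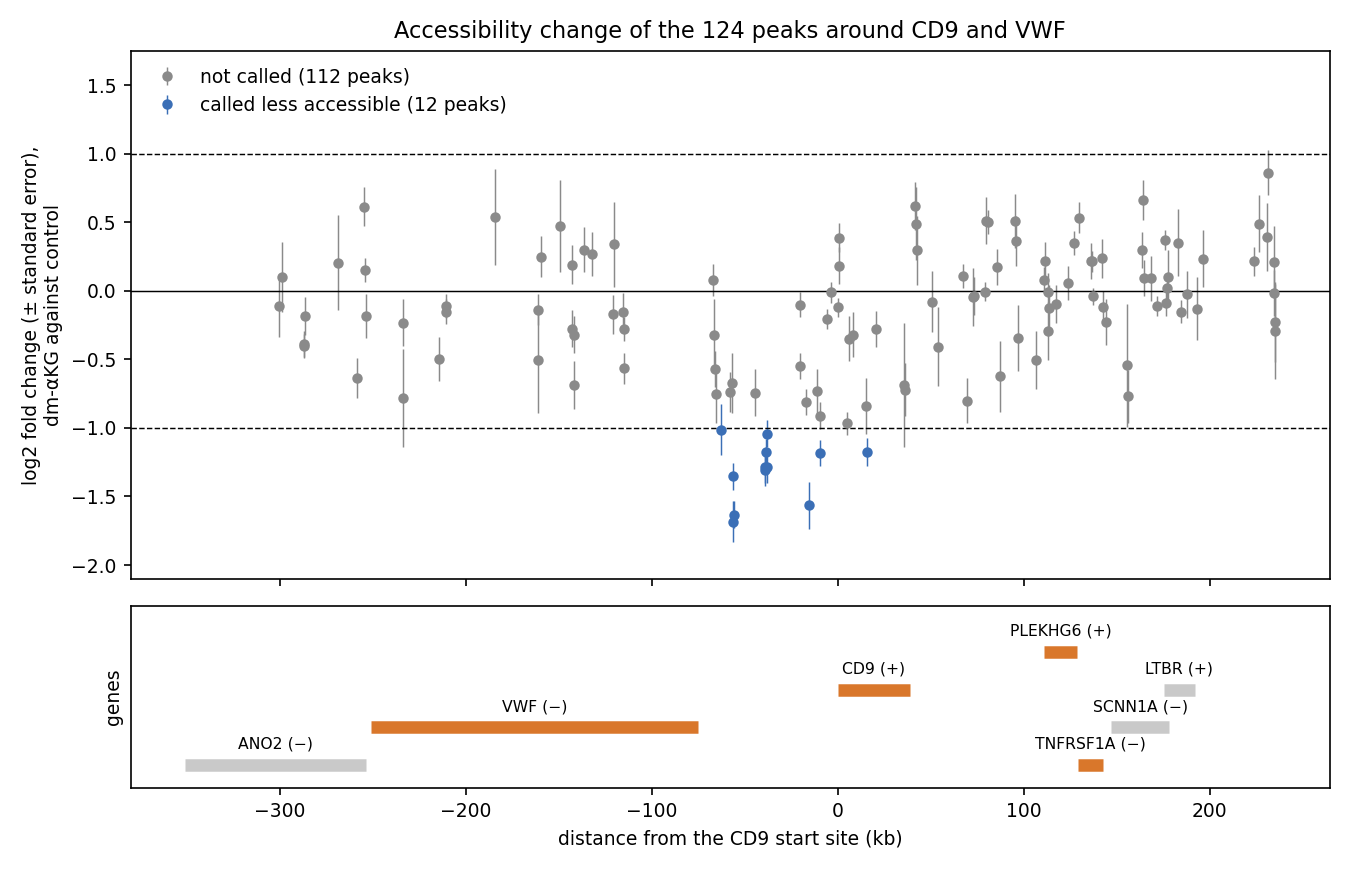
Log2 fold change of each of the 124 peaks (points, with standard error) against its distance from the CD9 start site in kb. Dashed lines mark log2 fold changes of -1 and 1, bars below show protein-coding genes with their strand, and ANO2 is drawn only within the locus. The 12 called peaks (blue) lie from 63.1 kb before to 15.6 kb after the CD9 start, while VWF, PLEKHG6 and TNFRSF1A hold 0.

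The difference was concentrated in 2 neighbouring segments. Between VWF and CD9, 25 of 26 peaks had a negative log2 fold change, with a median of -0.78, against 0.011 for all peaks. The share of all peaks with a negative log2 fold change was not computed. Of the 26, 22 were lower without overlap, against 16.9% of all peaks. The normalized counts of these 26 peaks summed to 8479.7, 8608 and 8776 in the control libraries and to 5248, 5226 and 5504 in the dm-αKG libraries, so that the dm-αKG mean was 61.8% of the control mean. Within CD9, 8 of 10 peaks had a negative log2 fold change, with a median of -0.52. Their sums were 1904, 1860.2 and 1939 in control and 1310.1, 1324 and 1388 with dm-αKG, or 70.5% of control. The 2 segments were grouped after their values were seen.

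On the other segments the differences were smaller. In VWF, 14 of 21 peaks had a negative log2 fold change (median -0.16), and the sum with dm-αKG was 89.2% of control. The 10 peaks before VWF, which all lie in introns of ANO2, a chloride channel gene, summed to 90.6% of control. Beyond CD9 the sums lay slightly above control, at 107.7% for the 18 peaks between CD9 and PLEKHG6, 107.9% for the 8 peaks of PLEKHG6, 108.2% for the 6 peaks of TNFRSF1A and 106.4% for the 25 peaks after it. No peak lay between PLEKHG6 and TNFRSF1A. Together these 88 peaks had a median log2 fold change of -0.01. Without overlap, 18 were lower and 16 higher, against 16.9% and 15.5% of all peaks. The 88 peaks summed to 15352 ± 14.3 (SD) in the 3 control libraries and to 15589 ± 303 (SD) in the 3 dm-αKG libraries.

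**Figure D2:**
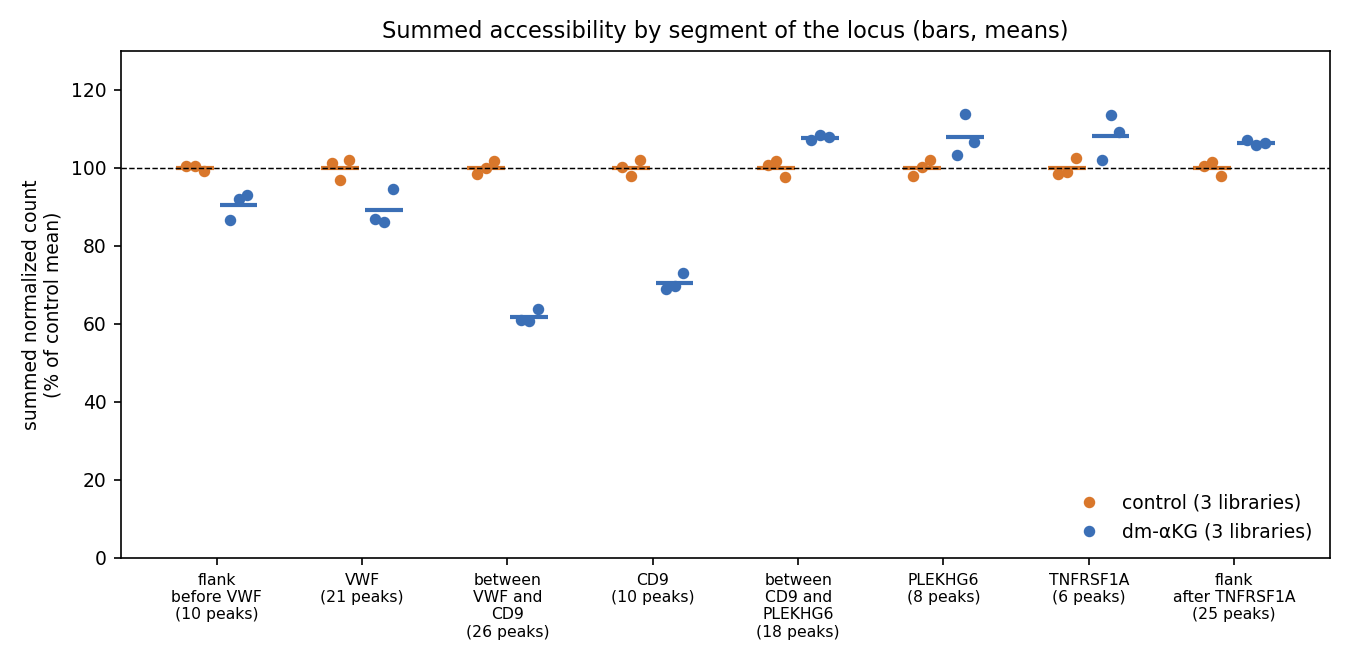
Summed normalized counts of the peaks of each segment in every library, as a percentage of the control mean of that segment. Points are libraries (orange, control, and blue, dm-αKG) and bars are means. The dm-αKG means are 61.8% between VWF and CD9 and 70.5% in CD9, and lie between 89.2% and 108.2% elsewhere.

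The 12 called peaks fell into 6 groups when peaks with centres less than 2 kb apart were joined. A call favours peaks with close replicates and treatments that are apart, so these traits are given below as a description. The group closest to the middle of the gap between the genes consisted of 5 peaks within 1.63 kb, from 6160292 to 6161921. It lies at the start site of ENSG00000255775, a long noncoding RNA gene on the minus strand from 6155035 to 6160719, and 4 of the 5 peaks lay within 1 kb of that start. The summed normalized counts of the 5 peaks were 1949, 1947 and 1986 in the control libraries and 814, 815 and 950.5 in the dm-αKG libraries, with no overlap. Among them, chr12:6160292-6160492, whose sequence is given above, had 378, 424 and 370.5 in control and 176, 112 and 181 with dm-αKG (log2 fold change -1.31 ± 0.11, SE). Its dm-αKG replicate 2 was the lowest of the 3. Peak chr12:6160878-6161279 had 482, 478 and 474 in control and 196, 214 and 234 with dm-αKG (log2 fold change -1.17 ± 0.09), with closely spaced control values.

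Peak chr12:6160665-6160869, which covers the RNA start, had 292, 284 and 333 in control and 132, 119 and 117 with dm-αKG. Peak chr12:6161426-6161625 had 325, 299 and 345 in control and 122, 135 and 145 with dm-αKG. Peak chr12:6161722-6161921 had 471, 461 and 464 in control and 188, 235 and 274 with dm-αKG, the widest spread of the 5 with dm-αKG. Their log2 fold changes were -1.28 ± 0.12, -1.28 ± 0.12 and -1.04 ± 0.10, and the control and dm-αKG values of each were apart. Further along the noncoding RNA gene, the exon peak chr12:6155121-6155323 was lower without overlap but not called (log2 fold change -0.74 ± 0.17).

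The 2nd group, nearer to VWF, held 3 peaks within 1.01 kb, from 6142969 to 6143979, with summed normalized counts of 1200.3, 1226 and 1132 in control and 387, 413 and 454 with dm-αKG. It contained both of the strongest log2 fold changes of the locus. Peak chr12:6143776-6143979 had 500.0, 513 and 505 in the control libraries and 158, 155 and 179.6 in the dm-αKG libraries, a log2 fold change of -1.63 ± 0.10. In peak chr12:6143460-6143663 the values were 210.2, 228 and 208 in control and 58.1, 71.8 and 76.3 with dm-αKG (log2 fold change -1.68 ± 0.15). Peak chr12:6142969-6143369 had 490.1, 485 and 419 in control and 171, 186 and 198 with dm-αKG (log2 fold change -1.35 ± 0.10). In all 3 peaks the replicates of a treatment were close and the treatments far apart, which the call itself favours.

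The other 4 called peaks stood alone. Peak chr12:6189830-6190034, 9.8 kb before the CD9 start, had 472, 488 and 514 in control and 210.1, 224 and 216 with dm-αKG (log2 fold change -1.18 ± 0.09). Peak chr12:6184240-6184439, 15.4 kb before it, was lower in level, with 177, 141 and 176 in control and 54.5, 43.6 and 70.3 with dm-αKG (log2 fold change -1.56 ± 0.17). Peak chr12:6215176-6215379, in an intron of CD9 15.6 kb after the start, had 412, 381 and 403 in control and 165, 168 and 204 with dm-αKG (log2 fold change -1.18 ± 0.10). In each of these 3 the highest dm-αKG library lay below the lowest control library, as in all 12 called peaks.

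Peak chr12:6136558-6136757 lay just inside the threshold, with 111, 110.2 and 99.6 in control and 57.4, 46.2 and 53.9 with dm-αKG (log2 fold change -1.01 ± 0.19), and was no longer called under several alternatives. Just outside the threshold was chr12:6204647-6204851 in another intron of CD9, with 542, 521 and 532 in control and 263, 272 and 284 with dm-αKG (log2 fold change -0.97 ± 0.09). It had the highest mean count in the CD9 body, and its treatments were apart as clearly as those of the called peaks. At the edges of the locus, the log2 fold changes of the outermost peaks inside were -0.11 and -0.23, and those of the next peaks outside were -0.13 and -0.02.

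**Figure D3:**
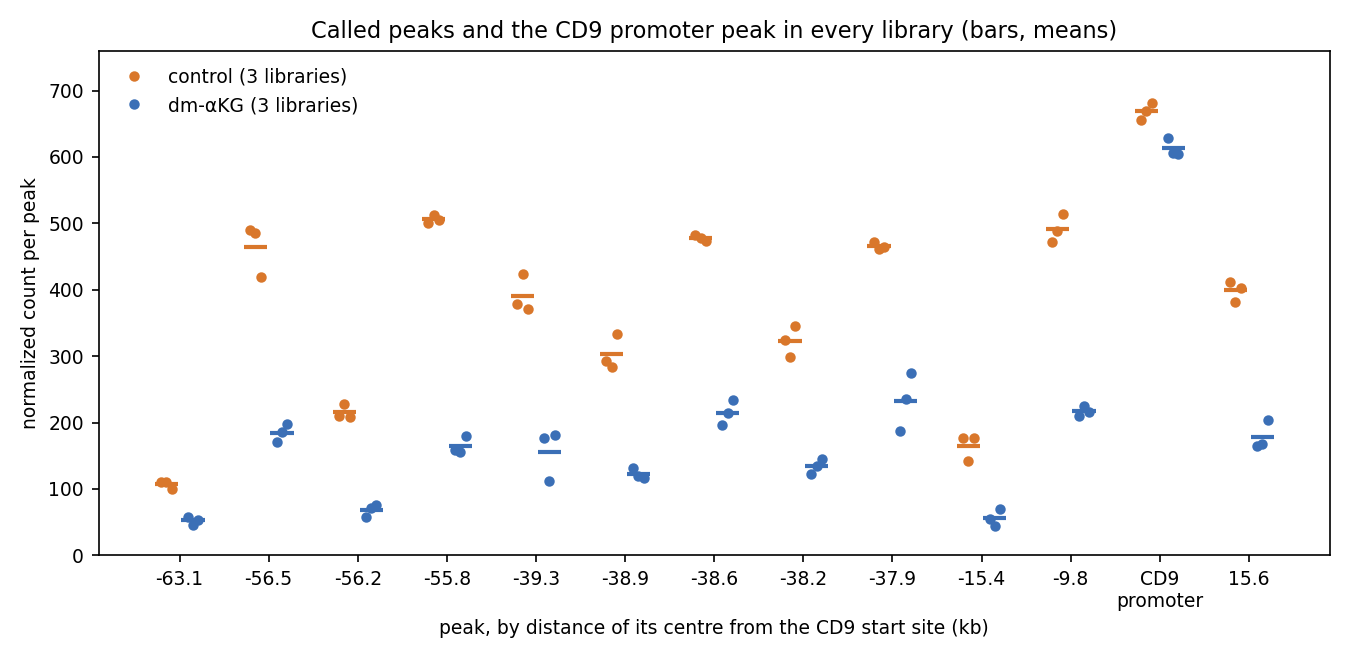
Normalized counts of the 12 called peaks and of the CD9 promoter peak in every library, ordered along the chromosome and labelled by distance from the CD9 start site in kb. Points are libraries (orange, control, and blue, dm-αKG) and bars are means. The treatments do not overlap in any of the 13 peaks, which the call favours for the 12, and the promoter peak has means of 669 and 613.

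The peak at the CD9 start did not share the size of these differences. Peak chr12:6199594-6199803, centred 17 bp before the start, had 656, 669 and 681 in the control libraries and 629, 605 and 605 in the dm-αKG libraries, a log2 fold change of -0.12 ± 0.07. The values were lower without overlap, by a margin far smaller than at the called peaks. At an alternative CD9 start in the UTR, chr12:6200287-6200495 had 198, 197 and 210.1 in control and 254, 278 and 260.4 with dm-αKG (log2 fold change 0.39 ± 0.11), all dm-αKG values being higher. Before the start, chr12:6195755-6195974 had 581, 536 and 595 in control and 549, 588 and 564 with dm-αKG, which overlap. The highest peak between the genes, chr12:6193965-6194168, had 819, 845 and 906 in control and 760.1, 657 and 808 with dm-αKG (log2 fold change -0.21 ± 0.07). Thus the peaks from 5.6 kb before to 0.7 kb after the CD9 start had log2 fold changes between -0.21 and 0.39, with larger negative values on both sides.

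VWF had no peak within 1 kb of a start site. Its highest peak, chr12:6084538-6084765 in an intron, had 419, 420.1 and 446 in control and 326, 351 and 392 with dm-αKG (log2 fold change -0.28 ± 0.09), lower without overlap but not called. The PLEKHG6 promoter peak, chr12:6310538-6310738, had 303, 341 and 316 in control and 318, 369 and 334 with dm-αKG, and the treatments overlapped. The TNFRSF1A promoter peak, chr12:6342009-6342210, also overlapped, with 177, 210.4 and 222 in control and 171, 192 and 201 with dm-αKG. Their log2 fold changes were 0.08 ± 0.09 and -0.12 ± 0.12.

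The highest peak of the whole locus, chr12:6336613-6336816 in an intron of TNFRSF1A, had 1003, 983 and 1076 in control and 937, 1046 and 998 with dm-αKG, with overlap. The highest peak in PLEKHG6, chr12:6326412-6326611 in an exon, had 373, 339 and 380.2 in control and 398, 496 and 512 with dm-αKG (log2 fold change 0.35 ± 0.09), higher without overlap. One shared promoter peak served LTBR, the lymphotoxin β receptor, and SCNN1A, a subunit of the epithelial sodium channel. That peak, chr12:6375383-6375594, had 497, 519 and 553 in control and 701, 699 and 612 with dm-αKG (log2 fold change 0.37 ± 0.08), again higher without overlap and not called.

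Further peaks completed the highest or promoter peaks of the segments. At the ANO2 promoter, chr12:5945228-5945435 had 351, 353 and 392 in control and 382, 419 and 418 with dm-αKG, which overlap. In an ANO2 intron, chr12:5912545-5912751 was lower without overlap, with 472, 480.1 and 508 in control and 347, 403 and 359 with dm-αKG (log2 fold change -0.40 ± 0.08). Between CD9 and PLEKHG6, chr12:6278626-6278830 had 792, 859 and 838 in control and 829, 826 and 823 with dm-αKG. In an intron of SCNN1A, chr12:6371198-6371411 had 732, 727 and 753 in control and 668, 653 and 729 with dm-αKG. Both of the latter overlapped between treatments, at log2 fold changes of -0.01 ± 0.07 and -0.11 ± 0.07.

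The call itself favours peaks with many reads in control, so the control level of the called peaks is given as a description. Their mean control counts lay between 107 and 506, at the 68.5th to 97.3rd percentile of all peaks, with a median at the 95.1st. The 112 peaks that were not called ranged from the 3.8th to the 99.8th percentile, with a median at the 73.8th. Of the 24 peaks between VWF and CD9 or in CD9 that were not called, 21 had negative log2 fold changes, with a median of -0.56. Without overlap, 17 of the 24 were lower and 1 was higher, against 16.9% and 15.5% of all peaks. All 12 called peaks were in the peak list of the control group, 9 were also in the dm-αKG list, and 3 (starting at 6136558, 6161426 and 6184240) were in the control list alone. In the 9 peaks of both lists the authors' fold enrichment, 1 value per list with no replicates, was at most 13.88 in control and 10 with dm-αKG. It was lower with dm-αKG in each of the 9, but to unlike degrees. At chr12:6160878-6161279 it was 4.31 in control and 4.29 with dm-αKG, nearly equal although the counts differed. At chr12:6143776-6143979 it was 11.03 and 7.06. The broad interval around the group of 5 peaks spanned 1872 bp in the control list and 1838 bp in the dm-αKG list, so a peak was still found there with dm-αKG. GC content of the called peaks lay between 48.5% and 64%, with a median of 53.5%, against 55.5% for all peaks. None of the 12 lay within 1 kb of a protein-coding start, and their distances to the nearest were 9.0 to 37.1 kb.

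**Figure D4:**
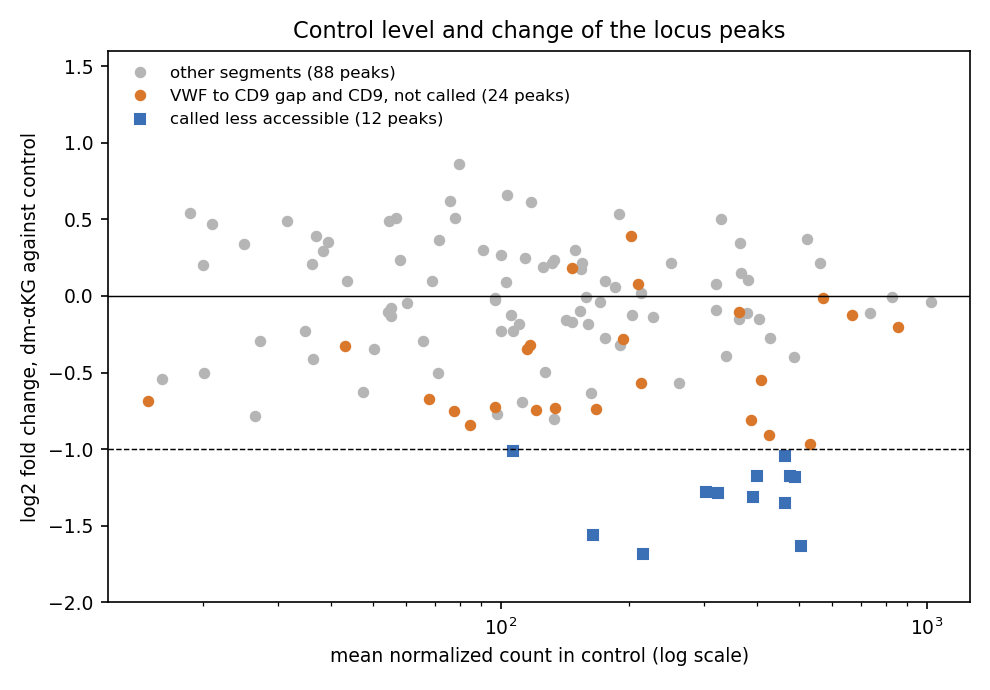
Log2 fold change of the 124 locus peaks against their mean normalized count in control (log scale). Blue squares are the 12 called peaks, orange points the other 24 peaks between VWF and CD9 or in CD9, and grey points the 88 peaks of the other segments. The grey points lie between -0.80 and 0.86 across the whole range of control counts, above the dashed line at -1.

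The sequence of chr12:6160292-6160492, printed above, was searched among all peaks of the table, a search made after the sequences had been seen. Within the locus, the sequence was shared by chr12:6142969-6143369 of the 2nd group, also called, at 81.0% identity. It was also shared by chr12:6133510-6133839 (77.3%) and chr12:6190238-6190460 (79.7%), which were not called. Outside the locus, 11 peaks on 6 chromosomes shared at least 100 aligned bases with it, at 73.4% to 87.3% identity. Of these, 4 were called less accessible and 0 more accessible, 10 were lower without overlap, and the median log2 fold change was -0.88, with a range from -1.81 to 0.05. Against these counts stand 1.96% of all peaks called less accessible, and 16.9% lower without overlap. These 11 peaks had no part in the selection of the locus, but related sequences are not independent samples of a class and no test was made. Another called peak shared sequence with as many locus peaks as the peak searched. Apart from these 11, peaks outside the locus that share sequence with called peaks were not examined for change. The values therefore describe the searched sequence only, not shared sequence in general. The strongest, on chromosome 12 from 7863118 to 7863317, had mean normalized counts of 220.0 in control and 63.6 with dm-αKG. The exception, on chromosome 17 from 12221945 to 12222144, had few reads, with 13.6 in control and 16.5 with dm-αKG. Of the 11 peaks, 5 lay on chromosome 12, from 6709048 to 7863317, beyond the end of the locus at 6442114.

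**Figure D5:**
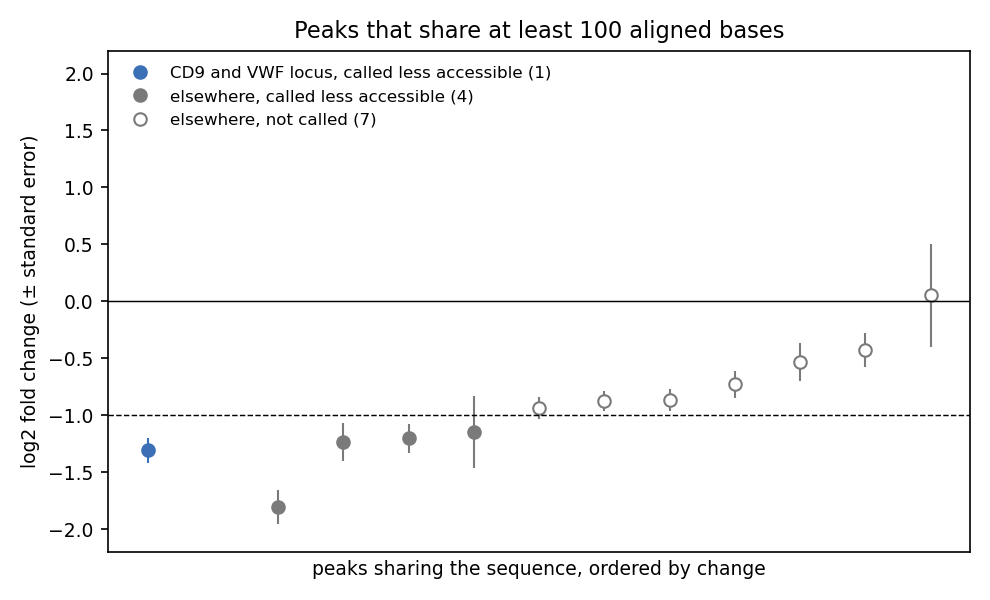
Log2 fold change (points, with standard error) of the locus peak whose sequence was searched (blue) and of the 11 peaks elsewhere (grey) that share at least 100 aligned bases with it, ordered by change. Filled points were called less accessible. Of the peaks elsewhere, 10 of 11 lie below 0, and the dashed line marks -1.

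Shared sequence was not a feature of all called peaks. With the same search, 6 of the 12 called peaks shared at least 100 aligned bases with some other peak of the table, as did 8 of the 24 other peaks between VWF and CD9 or in CD9 and 6 of the 88 peaks of the other segments. The share over all peaks was not computed, and no comparison is drawn from these counts. The number of such partners was 1361 for chr12:6143460-6143663 and between 2 and 36 for the other 5. Apart from the peaks described above, partners outside the locus were not examined for change. Reads from near-identical copies can be placed at the wrong copy or discarded, and the part of this in the values was not tested. The 6 called peaks without a partner, at the noncoding RNA start, in CD9 and at chr12:6136558-6136757, had log2 fold changes between -1.28 and -1.01.

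The 9 motifs were searched without mismatches on both strands in the central 200 bases of each peak. The TEAD motif (GGAATG) was in 4 of the 12 called peaks, in 23 of the 112 others and in 14.6% of all peaks. Single called peaks held the NRF2 motif (TGACNNNGC, 9.56% of all peaks) or the GATA motif (AGATAA, 6.22% of all peaks). None of the 12 held the OCT motif (ATGCAAAT, 2.3% of all peaks), the SOX motif (AACAATG, 2.43%), the KLF motif (GGGNGTGG, 13.7%), the AP-1 motif (TGANTCA, 6.33%), the FOX motif (TGTTTAC, 2.85%) or the TFAP2 motif (GCCNNNGGC, 17.9%). Peak chr12:6160878-6161279 is longer than this window and held a KLF match (GGGGGTGG) and a TEAD match outside it. In 12 peaks these are counts of letters, not of bound factors.

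Genes whose products work with those of the locus were examined at their promoter peaks, each tested among all peaks, of which 9.88% had an adjusted p below 0.01. Of 14 partners of CD9, including the tetraspanins CD81 and CD151, integrin subunits and the proteases ADAM10 and ADAM17, all had a promoter peak and 0 passed an adjusted p below 0.01 in edgeR's test. Their log2 fold changes lay between -0.15 and 0.27, with a median of 0.01. With DESeq2, 0 passed as well. In edgeR's test, 3 had an unadjusted p below 0.05 (CD63 and ADAM10, higher, and EPCAM, lower), and CD63 alone had an adjusted p below 0.05, as did 18.0% of all peaks. Of 11 genes of TNF receptor 1 signalling, 1 rose and 1 fell at an adjusted p below 0.01 in edgeR's test. The peak of TRADD, the adaptor that binds the receptor, rose from 304, 249.9 and 312 in control to 384, 343 and 356 with dm-αKG (log2 fold change 0.34 ± 0.10, edgeR's adjusted p = 0.00699). That of CASP8, the initiator caspase of the pathway, fell from 459, 471 and 447 to 351, 364 and 392 (log2 fold change -0.32 ± 0.08, edgeR's adjusted p = 0.00325). The treatments did not overlap in either gene. Neither passed with DESeq2, nor in the fits that omitted any 1 of replicates 1 and 2 of either treatment. At edgeR's adjusted p below 0.05, TRADD, TRAF2, FADD and RELA were higher and CASP8 was lower. Summed over this list, normalized counts were 3420 to 3521 in control and 3691 to 3755 with dm-αKG, without overlap. CASP8, BIRC3 and NFKB1 had negative log2 fold changes, so not all members shared this shift.

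Among windows of a protein-coding gene with 100 kb on either side, those of VWF and CD9 held 12 called less accessible peaks each, of 65 and 66 peaks, the most of all 20033 genes. The window of PLEKHG6 held 1 and that of TNFRSF1A held 0. The windows outside the locus that held the next most were those of SMAD6 on chromosome 15, an inhibitor of BMP signalling, with 8 of 59 peaks, of DAB1 on chromosome 1 with 8 of 78, and of TDGF1 on chromosome 3, a co-receptor of NODAL, with 7 of 34. As a share of its peaks, the window of TDGF1 (20.6%) was above those of VWF (18.5%) and CD9 (18.2%). This ranking repeats the measure that chose the locus.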

How the data were processed

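ATAC-seq was analysed in 3 control and 3 dm-αKG libraries, grouped by the treatment in the labels. The authors trimmed the reads with cutadapt, aligned them to hg38 with Bowtie2, filtered alignments as the ENCODE pipeline for ATAC-seq does, called peaks with MACS2, kept the reproducible ones of each treatment, cut each to 200 bp at its summit and merged the lists. They deposited raw counts of reads per merged peak and library, and, per treatment, a peak list with the ratio of signal to background as a fold enrichment and the q-value as −log10. The q-values were not used. The submitters' processing notes also name bedtools 2.28.0 and bcl2fastq 2.20.0.422.

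The locus and its gene lists were chosen with earlier results of these data known. All peaks were fitted in R 4.3.3 with edgeR 4.0.16 (TMM, quasi-likelihood, treatment only, Benjamini-Hochberg) and called less or more accessible at adjusted p below 0.01 and a log2 fold change below -1 or above 1. Standard errors are those of the log2 fold change. The smallest p that an exact permutation test allows for 3 and 3 libraries is 0.10. p-values measure the spread between biological replicates of a single experiment. DESeq2 1.42.0 was an alternative. The fits were tested on simulated counts.

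Genes came from GENCODE 44. Peaks named are the 6 called peaks with the smallest adjusted p, the highest promoter peak of each protein-coding gene within 1 kb of a start, the highest peak of each segment and the peaks at both ends. The other called peaks, those near the CD9 start and those sharing sequence were named after their values were seen. Marker lists for naive, primed, trophoblast and endothelial cells, CD9 partners and TNF receptor 1 signalling came from general knowledge. Sequences were read from hg38, aligned with Biopython 1.88 to choose the peak searched, and searched with BLAST 2.17.0. The sequences of some peaks are not reported here.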

Additional observations from a re-analysis of the deposited data

How the results depend on the processing

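In the fits with another tool, scaling, filter or set of libraries, the locus held 11 or 12 less accessible peaks. DESeq2, RLE scaling and a minimum of 10 counts kept all 12. Flanks of 50 and 200 kb could not lose any of the 12, which lay well inside the locus, and those of 200 kb added none. Total count scaling lost the peak starting at 6136558, which was also lost when replicate 1 or 2 of control or replicate 2 of dm-αKG was left out, and the peak starting at 6161722 was lost without dm-αKG replicate 1. Leaving out 1 library gave 11 to 12 less and 0 to 1 more accessible peaks. The thresholds moved the counts most, to 34 less and 11 more at an adjusted p below 0.05 with no fold threshold (10.5% and 7.43% of all peaks), and to 25 less and 4 more at a 1.5-fold threshold (4.94% and 2.32% of all peaks). For 19 of the peaks named by rule, those at both ends of the locus not being recomputed, 209 of 209 values stayed on the same side of the thresholds. The called peaks among these 19 were those with the smallest adjusted p, so this does not cover the calls nearer the threshold. The median log2 fold change of the locus lay between -0.15 and -0.11.

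Control and dm-αKG libraries of equal replicate number showed no shared deviation (correlations of deviations from the group means of -0.016, -0.001 and 0.013). The labels do not say whether libraries of equal number were handled together. With the number as a block, the 12 calls were kept and the median was -0.12.

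At an adjusted p below 0.05, 1 of 14 CD9 partners and 5 of 11 TNF receptor 1 genes passed, as did 18.0% of all peaks. At an adjusted p below 0.01, DESeq2 passed 0 of the TNF receptor 1 genes, where edgeR passed 2. DESeq2's adjusted p was 0.040 for TRADD and 0.015 for CASP8. Leaving out 1 library passed 0 to 3 at an adjusted p below 0.01, FADD being gained without dm-αKG replicate 3. The cause was not tested. Counts limit the precision of the lowest peaks, where standard errors reached 0.45.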
